A study of Mus musculus with 6 samples.

Results

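The genes described here are 6 fibroblast growth factor (FGF) ligand genes, Fgf1, Fgf8, Fgf9, Fgf10, Fgf12 and Fgf13, and the 4 FGF receptor genes Fgfr1, Fgfr2, Fgfr3 and Fgfr4, taken by symbol from the deposited table. All 10 were found, each on 1 row, among 38918 listed genes. RNA was sequenced from whole mouse hearts at embryonic day 11.5 on a C57/BL6 background. Conditional knockout hearts were Nfatc1Cre:Tie2 flox/flox, so that Tie2 (gene Tek, the receptor for angiopoietins) was targeted through a Cre recombinase expressed from Nfatc1, a gene of the endocardium. Control hearts came from littermates that were Tie2 flox/wild-type, and the labels name no Cre for them. According to the labels, RNA of 18 hearts per genotype was pooled and then divided into 3 libraries per group. Markers of other tissues, given below, differed between libraries of 1 group by more than aliquots of a single pool would be thought to, so the labels do not settle what separates the libraries. The p-values below measure the spread between these libraries, which may be technical, and not the spread between embryos. Values are FPKM, a fragment count scaled by transcript length and by the size of the library, and 3 values of a group are always those of replicates 1, 2 and 3.

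Secreted FGFs bind receptor tyrosine kinases together with heparan sulphate, and the receptors signal through the adaptor Frs2 to Ras and the MAP kinases, with Etv factors, Sprouty and Dusp genes among the transcriptional targets. In the embryonic mouse heart, Fgf8 and Fgf10 are known from the second heart field, the progenitors that add the outflow tract and right ventricle. Fgf9 comes from epicardium and endocardium and acts on the myocardium through Fgfr1 and Fgfr2. Fgf12 and Fgf13 are FGF homologous factors, which are not secreted and bind the cytoplasmic tails of voltage-gated sodium channels.

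None of the 10 genes passed the test between conditional knockout and control hearts. Fgf12, higher in conditional knockouts, was the single member whose libraries did not overlap between the groups, 1 of the 7 tested, a share near the 13.4% of all tested genes. Fgf1 and Fgf9 had means that differed by less than the spread between libraries of either group. For Fgf13 this held only for the spread of conditional knockout libraries (SD 4.54 FPKM), which exceeded that of control libraries (0.317 FPKM). Fgfr1, Fgfr2 and Fgfr3 were each highest in conditional knockout replicate 1, and the ratio of Fgfr2 to Fgfr1, picked out after the values were seen, was higher in every conditional knockout library than in any control.

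Groups were compared with limma on log2(FPKM + 1), over every gene that averaged 1 FPKM or more in the 6 libraries, and p-values were adjusted by Benjamini and Hochberg's method and called under 0.05. Of 12988 genes tested, 16 were lower (0.123%) and 7 higher (0.0539%) in conditional knockouts, 0.177% in all; without 1 library at a time the lower genes numbered 4 to 9. The 7 higher genes include the globin genes Hbb-y and Hba-x, which are listed at 0 in all controls, possibly as failed estimates. Of the 10 FGF genes, 7 reached the minimum of 1 FPKM and 0 of these 7 passed, while 1 of 7, Fgf12, had an unadjusted p under 0.05 in limma, a level reached by 6.68% of all genes tested and, with conditional knockouts higher, by 2.31%. The median log2 fold change was 0.05 over the 7 genes and -0.01 over all genes tested. Fgf8, Fgf10 and Fgfr4 stayed under the minimum and are described by their values.

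Library sums of FPKM ran from 481334 to 582261, with 12647 to 13041 genes at 1 FPKM or above. The table holds no read counts, so the absolute depth is unknown and no counting error can be given for the genes with low FPKM. Tek was at 3.38, 3.13 and 3.13 FPKM in conditional knockout libraries, against 22.4, 25.7 and 16.6 FPKM in control libraries (limma log2 fold change -2.40 ± 0.15 SE, adjusted p = 0.00131). The 8 cardiomyocyte markers summed to between 9829 and 16169 FPKM in conditional knockout libraries and between 13531 and 15981 FPKM in control libraries, and none of them was at 0. Conditional knockout replicate 1 stood apart. It had the lowest level of 7 of the 8 cardiomyocyte markers and the highest level of 7 of 8 foregut and lung endoderm markers, the remaining one, Sftpc, being at 0 in all 6 libraries. Those 8 foregut markers, Nkx2-1, Shh and Foxa2 among them, summed to 14.9, 2.05 and 1.64 FPKM in conditional knockout libraries, against 0.884, 0.669 and 0.933 FPKM in control libraries. All 6 skeletal muscle progenitor markers were also highest in conditional knockout replicate 1, with sums of 5.58, 1.003 and 1.29 FPKM in conditional knockout libraries and 0.507, 0.752 and 0.828 FPKM in control libraries. Conditional knockout replicate 2 had the highest level of all 8 liver markers, with a summed level of 265 FPKM, against 10.4 and 4.59 FPKM in the other conditional knockouts and between 26.8 and 101 FPKM in controls.

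**Figure D1:**
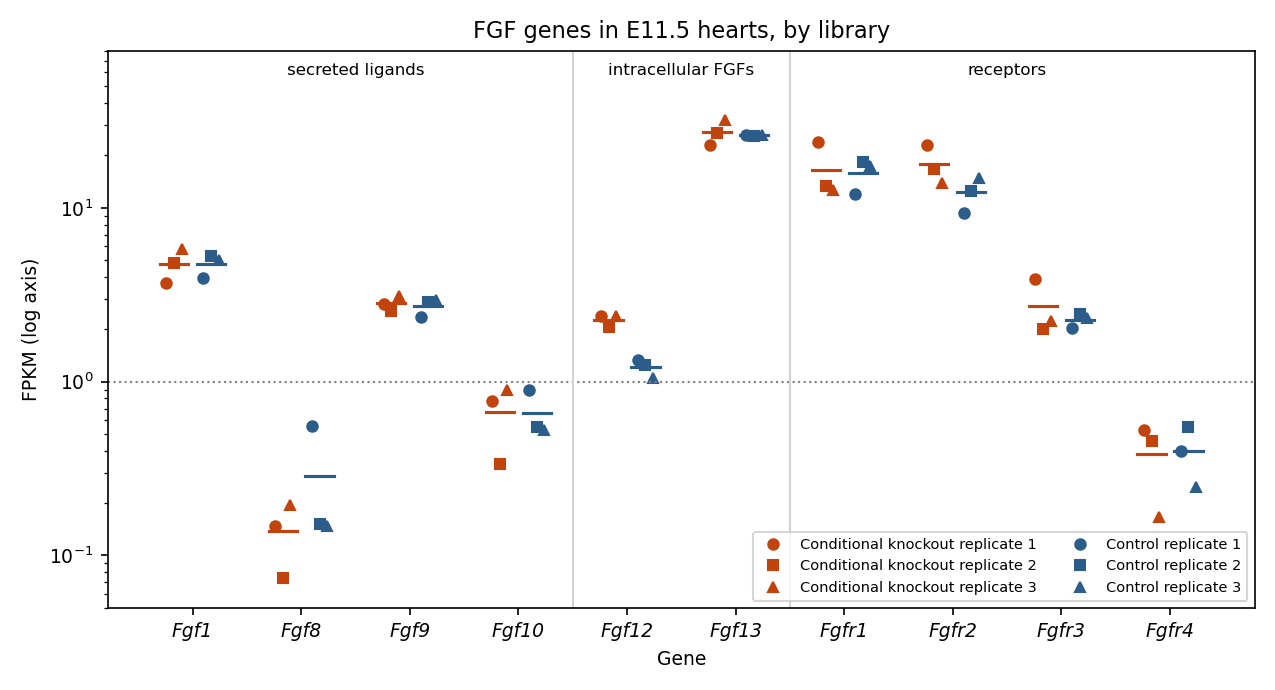
FPKM of each FGF gene in every library, on a log axis, with conditional knockout libraries to the left of control libraries, horizontal bars for group means and a dotted line at the minimum mean of 1 FPKM. Fgf13, Fgfr1 and Fgfr2 lie highest, and Fgf12 is the gene whose libraries separate, at 2.05 to 2.38 FPKM in conditional knockouts and 1.05 to 1.32 FPKM in controls.

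FPKM corrects for transcript length, so levels can be set beside each other between genes. By mean over the 6 libraries the order was Fgf13 (26.6 FPKM), Fgfr1 (16.3 FPKM), Fgfr2 (15.1 FPKM), Fgf1 (4.74 FPKM), Fgf9 (2.77 FPKM), Fgfr3 (2.49 FPKM), Fgf12 (1.74 FPKM), Fgf10 (0.662 FPKM), Fgfr4 (0.390 FPKM) and Fgf8 (0.212 FPKM). The order held in all 6 libraries, with ranges that did not overlap, at 3 steps: between Fgfr2 and Fgf1, between Fgf1 and Fgf9, and between Fgf12 and Fgf10. At the other 6 steps the ranges over the libraries overlapped, and Fgfr1, for example, was above Fgfr2 in 4 of 6 libraries. Fgf13 made up between 70.1% and 73.2% of the summed level of the 6 ligand genes in conditional knockout libraries and between 71.9% and 74.4% in control libraries.

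The ligand genes are distant relatives at the level of their sequence, which bears on whether reads could be shared between them. The longest annotated coding sequences of Fgf12 and Fgf13 are 729 and 735 bases, 68.8% identical over 711 aligned bases, and the longest stretch they share exactly is 14 bases. Among the receptors, Fgfr1 and Fgfr2 are 72.8% identical over 2442 aligned bases, and the longest exact stretch between any pair of receptors is 26 bases, between Fgfr1 and Fgfr3. How reads matching several genes were handled is not known here.

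Fgf12, which encodes an FGF homologous factor, is a protein-coding gene with 6 annotated transcripts on the minus strand of chromosome 16, spanning 28160098 to 28753068 in GRCm38. It stood at 2.38, 2.05 and 2.37 FPKM in conditional knockout libraries, against 1.32, 1.25 and 1.05 FPKM in control libraries. Every conditional knockout library was above every control library. The mean was 2.27 ± 0.187 FPKM in conditional knockouts and 1.21 ± 0.142 FPKM in controls (SD, n = 3 each), a ratio of 1.87. The limma log2 fold change was 0.56 ± 0.13 (SE, adjusted p = 0.340), with a 95% interval from 0.26 to 0.87 before adjustment for the number of genes. By unadjusted p (0.00314 in limma), Fgf12 ranked 120 among 12988 genes. Of the 13.4% of tested genes whose libraries did not overlap, 5.23% were higher in conditional knockouts and 8.17% lower, as shares of all genes tested. The pseudocount of 1 compresses a gene at this level: with a pseudocount of 0.1 the log2 fold change was 0.86 (limma adjusted p = 0.345).

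Neuronal and endothelial markers are given beside Fgf12, which is also expressed in neurons. The 9 neuron and neural crest markers summed to 14.8, 11.2 and 8.16 FPKM in conditional knockout libraries and 11.4, 10.9 and 10.3 FPKM in control libraries, so the sums overlapped, and 6 of the 9 were, like Fgf12, highest in conditional knockout replicate 1. Of these markers 3 were tested and none passed. Elavl4, an RNA-binding protein gene of neurons, stood at 1.45, 1.67 and 2.10 FPKM in conditional knockout libraries, against 0.882, 0.735 and 1.01 FPKM in control libraries (limma log2 fold change 0.54 ± 0.16 SE, adjusted p = 0.559), and Tubb3, a tubulin gene of neurons, at 4.96, 6.60 and 3.41 FPKM, against 7.47, 5.75 and 5.74 FPKM. The 8 endocardial and endothelial markers summed to between 177 and 210 FPKM in conditional knockout libraries and between 275 and 305 FPKM in control libraries. Of these 8, 2 passed the threshold, Npr3 and Plvap, both lower in conditional knockouts, against 0.123% of all tested genes called lower. Libraries of the groups did not overlap in 7 of the 8, against 13.4% of all tested genes. Emcn overlapped and went the other way, with a log2 fold change of 0.08 ± 0.13 (SE, limma adjusted p = 0.923). No marker of either list was at 0 in all libraries. The part of these cells in the level of Fgf12 was not tested, and in whole hearts fewer cells of a type cannot be told apart from less RNA per cell.

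Alternative first exons give Fgf12 transcripts that start far apart, and the gene-level FPKM adds them together. RefSeq (GRCm38.p6) gives 4 start windows for Fgf12. The 250 bases before the start are shown for the pair of windows that overlap no annotated exon, because Fgf12 was the member whose libraries separated and the table cannot tell which start was used. Capitals mark CpG dinucleotides, and each sequence runs 5′ to 3′ on the minus strand, the first at chr16:28753244-28753493 and the second at chr16:28564952-28565201.
Fgf12 distal start: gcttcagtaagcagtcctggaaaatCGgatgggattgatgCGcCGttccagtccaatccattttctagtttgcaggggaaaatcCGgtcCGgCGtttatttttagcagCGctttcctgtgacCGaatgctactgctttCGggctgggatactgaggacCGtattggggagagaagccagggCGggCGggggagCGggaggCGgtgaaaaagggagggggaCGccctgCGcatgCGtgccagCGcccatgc
Fgf12 inner start: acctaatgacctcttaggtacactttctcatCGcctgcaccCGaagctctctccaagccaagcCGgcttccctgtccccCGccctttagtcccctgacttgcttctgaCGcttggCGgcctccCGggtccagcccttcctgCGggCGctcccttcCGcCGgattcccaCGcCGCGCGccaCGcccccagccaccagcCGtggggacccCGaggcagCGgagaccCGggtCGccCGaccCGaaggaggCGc
The distal window holds 18 CpG dinucleotides and the inner window 24, against a median of 6 and an upper quartile of 16 over 32851 windows of 250 bases before RefSeq start sites. The letters TATAAA, searched on both strands, are in none of the 4 Fgf12 windows and in 12.4% of all windows, which says only that these letters are not in these windows.

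Fgf13, the FGF homologous factor that predominates in mouse cardiomyocytes, lies on chromosome X from 59062145 to 59568071 (GRCm38). It stood at 22.9, 26.8 and 31.9 FPKM in conditional knockout libraries, against 26.4, 25.7 and 26.1 FPKM in control libraries. The conditional knockout libraries lay on either side of the narrow range of the controls. The means were 27.2 ± 4.54 and 26.1 ± 0.317 FPKM in conditional knockouts and controls (SD, n = 3 each), and the limma log2 fold change was 0.05 ± 0.13 (SE, adjusted p = 0.962), with a 95% interval from -0.25 to 0.35. Across the 6 libraries, the genes whose log2 levels followed Fgf13 most closely around their own means were Anln, Ppp2r3a and Kif5b, with mean absolute differences of 0.029, 0.031 and 0.034 on the log2 scale.

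The voltage-gated sodium channel genes, whose proteins bind the FGF homologous factors, were mostly at low levels. Of 15 genes found, 3 reached the minimum and 0 passed. Scn2b, a beta subunit gene, stood at 1.68, 1.40 and 1.39 FPKM in conditional knockout libraries, against 1.05, 1.29 and 1.1995 FPKM in control libraries, without overlap. For Scn2b limma gave 0.19 ± 0.14 on the log2 scale (SE, adjusted p = 0.815). Of the 3 tested genes, 2 had libraries that did not overlap between the groups, against 13.4% of all tested genes. Scn2b was the 1 gene of these 3 with a log2 fold change above 0, and 2 were below 0.

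Among the secreted ligands, Fgf1, which binds all FGF receptors, stood at 3.67, 4.80 and 5.80 FPKM in conditional knockout libraries, against 3.92, 5.25 and 4.99 FPKM in control libraries. The groups overlapped throughout, with means of 4.76 ± 1.06 and 4.72 ± 0.704 FPKM in conditional knockouts and controls (SD, n = 3 each). Its limma log2 fold change was 0.00 ± 0.17 (SE, adjusted p = 0.9999), with a 95% interval from -0.39 to 0.39. Fgf9, the epicardial and endocardial ligand, stood at 2.80, 2.56 and 3.13 FPKM in conditional knockout libraries, against 2.36, 2.85 and 2.94 FPKM in control libraries. These libraries overlapped as well, and limma gave 0.04 ± 0.12 (SE) on the log2 scale (adjusted p = 0.964), with a 95% interval from -0.25 to 0.33. The epicardial markers, which include Wt1 and Tbx18, summed to between 203 and 206 FPKM in conditional knockout libraries and between 199.8 and 216 FPKM in control libraries.

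Fgf10 stood at 0.772, 0.336 and 0.890 FPKM in conditional knockout libraries, against 0.896, 0.550 and 0.530 FPKM in control libraries. In each group the values spread widely and the groups overlapped, with means of 0.666 ± 0.292 and 0.659 ± 0.206 FPKM in conditional knockouts and controls (SD, n = 3 each). Fgf8 was lower still, at 0.148, 0.0739 and 0.195 FPKM in conditional knockout libraries, against 0.555, 0.153 and 0.147 FPKM in control libraries, where replicate 1 alone stood apart. With no minimum on the level, limma gave log2 fold changes of 0.00 for Fgf10 and -0.16 for Fgf8 (adjusted p = 0.999 and 0.845). The 8 markers listed for the second heart field summed to 131, 99.3 and 105 FPKM in conditional knockout libraries and 113, 121 and 112 FPKM in control libraries. Of these 8, 6 were highest in conditional knockout replicate 1, and 1, Hand2, was lowest there. Tbx1 stood at 4.80, 0.180 and 0.0739 FPKM in conditional knockout libraries, against 0.214 to 0.296 FPKM in control libraries. Isl1 stood at 10.5, 2.80 and 2.87 FPKM, against 2.44 to 3.35 FPKM. Hand2 went the other way, at 53.3, 55.3 and 57.6 FPKM in conditional knockout libraries, against 62.2, 69.2 and 63.6 FPKM in control libraries. In conditional knockout replicate 1, where Tbx1 and Isl1 were highest, Fgf8 and Fgf10 lay within the range of the other libraries.

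Fgfr2, which in its IIIc form receives Fgf9 and in its IIIb form Fgf10, lies on chromosome 7 from 130162451 to 133123350 (GRCm38). It stood at 23.1, 16.6 and 13.8 FPKM in conditional knockout libraries, against 9.37, 12.6 and 14.9 FPKM in control libraries. Conditional knockout replicates 1 and 2 were above all controls, and replicate 3 was below control replicate 3. The means were 17.9 ± 4.72 FPKM in conditional knockouts and 12.3 ± 2.76 FPKM in controls (SD, n = 3 each), a ratio of 1.46. The limma log2 fold change was 0.50 ± 0.22 (SE, adjusted p = 0.755), with a 95% interval from -0.01 to 1.01. It was 0.31 without conditional knockout replicate 1, 0.33 without control replicate 1, and 0.14 within replicates 2 and 3 (limma adjusted p = 0.735, 0.721 and 0.669).

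Fgfr1, the main receptor gene of mesenchyme and myocardium, stood at 23.8, 13.4 and 12.6 FPKM in conditional knockout libraries, against 12.0, 18.4 and 17.3 FPKM in control libraries. Replicate 1 was the highest conditional knockout library and the lowest control library. The means were 16.6 ± 6.20 FPKM in conditional knockouts and 15.9 ± 3.42 FPKM in controls (SD, n = 3 each), and the limma log2 fold change was 0.02 ± 0.26 (SE, adjusted p = 0.994), with a 95% interval from -0.58 to 0.62. Without conditional knockout replicate 1 the log2 fold change was -0.25, and without control replicate 1 it was -0.16 (limma adjusted p = 0.754 and 0.887). Within replicates 2 and 3 alone Fgfr1 had a log2 fold change of -0.43 ± 0.08 (SE, limma unadjusted p = 0.00272, adjusted p = 0.276). The genes that followed Fgfr1 most closely across the 6 libraries were Dchs1, Scarf2 and Rarg, with mean absolute differences of 0.032, 0.065 and 0.072 on the log2 scale.

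Fgfr3 stood at 3.87, 2.02 and 2.24 FPKM in conditional knockout libraries, against 2.02, 2.45 and 2.34 FPKM in control libraries, with a log2 fold change of 0.15 ± 0.20 (SE, limma adjusted p = 0.893). Apart from conditional knockout replicate 1, its libraries lay within a narrow range, and without that library the log2 fold change was -0.06. Fgfr4, a receptor gene prominent in liver and in skeletal muscle progenitors, stood at 0.528, 0.454 and 0.166 FPKM in conditional knockout libraries, against 0.399, 0.546 and 0.248 FPKM in control libraries. Conditional knockout replicates 1 and 2 had the highest Fgfr4 after control replicate 2. Skeletal muscle progenitor markers were highest in conditional knockout replicate 1 and liver markers in conditional knockout replicate 2. Among the controls, the liver marker sum was lowest in replicate 2 (26.8 FPKM) and highest in replicate 1 (101 FPKM). The part of muscle progenitor or liver cells in the level of Fgfr4 was not tested. With no minimum on the level its log2 fold change was -0.02 (limma adjusted p = 0.981).

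Summed over the 4 receptors, the level was 51.2, 32.5 and 28.9 FPKM in conditional knockout libraries, against 23.8, 34.0 and 34.8 FPKM in control libraries. The sums of the groups overlapped, with the highest in conditional knockout replicate 1 and the lowest in control replicate 1. Of the 7 tested FGF genes, 4 (Fgfr1, Fgfr2, Fgfr3 and Fgf12) were highest in conditional knockout replicate 1, where 17.2% of all tested genes were highest. That library also held the most foregut, skeletal muscle progenitor and cartilage progenitor marker RNA and the least cardiomyocyte marker RNA. The cartilage markers Sox9, Col2a1, Col9a1, Acan and Matn1 summed to 92.0, 53.8 and 44.4 FPKM in conditional knockout libraries and to between 48.2 and 54.7 FPKM in control libraries. The part of these other cells in the receptor levels was not tested.

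Fgfr2 was compared with Fgfr1 within each library, since such a ratio does not depend on the scaling of a library. This ratio was chosen after the values were seen. It was 0.971, 1.24 and 1.10 in conditional knockout libraries, against 0.778, 0.681 and 0.857 in control libraries. Each conditional knockout library was above each control library. The foregut sum was also above every control in all 3 conditional knockout libraries, and its part in the ratio was not tested. The means were 1.10 ± 0.136 in conditional knockouts and 0.772 ± 0.0884 in controls (SD, n = 3 each), a difference of 0.331 that is given as a description. An exact test of 3 against 3 libraries can give no p under 0.1, and it gave 0.1 here. That test cannot weigh a ratio chosen after the values were seen. Fgfr1 and Fgfr2 together made up between 91.4% and 92.4% of the receptor sum in conditional knockout libraries and between 89.8% and 92.6% in control libraries.

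**Figure D2:**
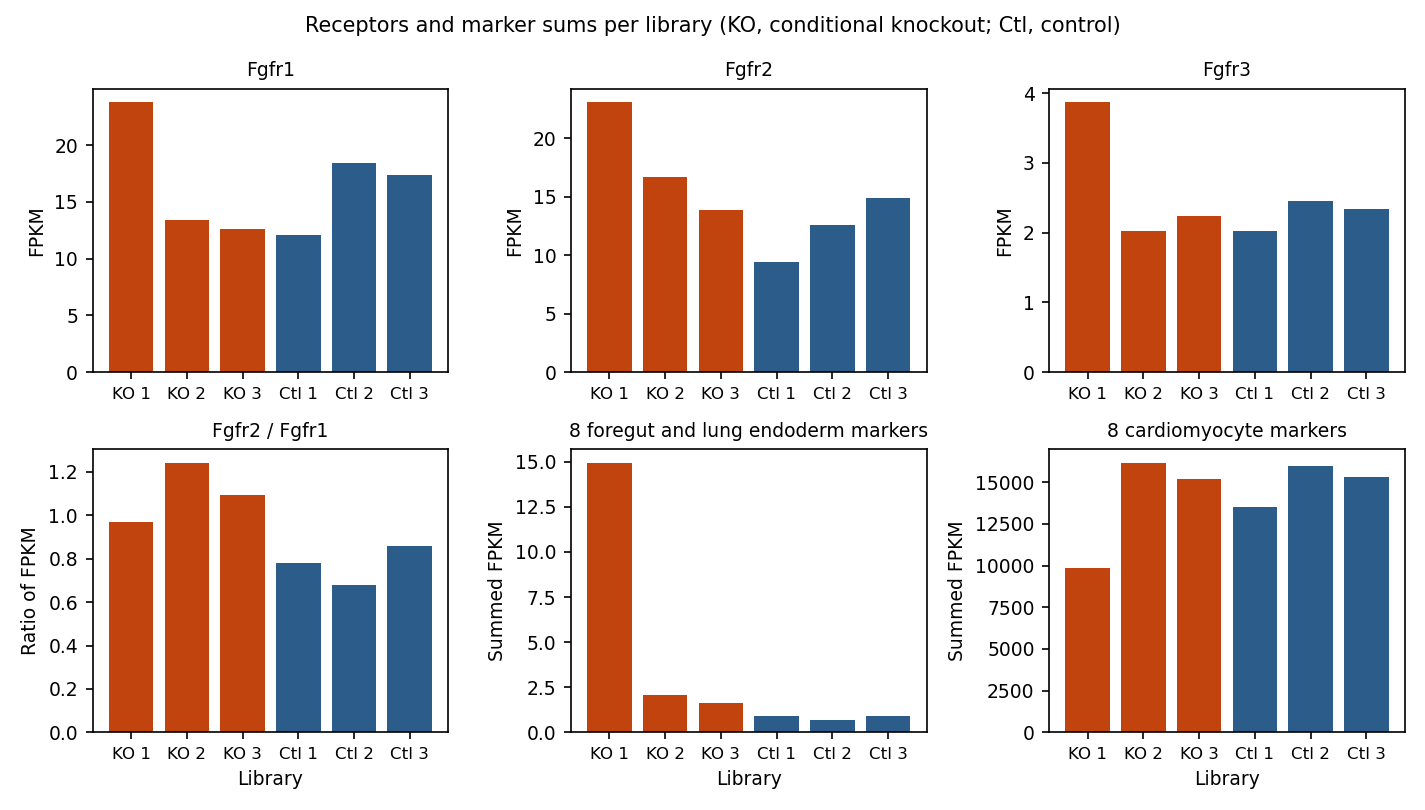
FPKM of Fgfr1, Fgfr2 and Fgfr3, the ratio of Fgfr2 to Fgfr1, and the summed FPKM of 8 foregut and lung endoderm and 8 cardiomyocyte markers in each library, with conditional knockout libraries in orange to the left of control libraries in blue. The 3 receptor genes and the foregut sum (14.9 FPKM) are highest in conditional knockout replicate 1, whereas the ratio is above 0.97 in all conditional knockouts and at most 0.857 in controls.

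**Figure D3:**
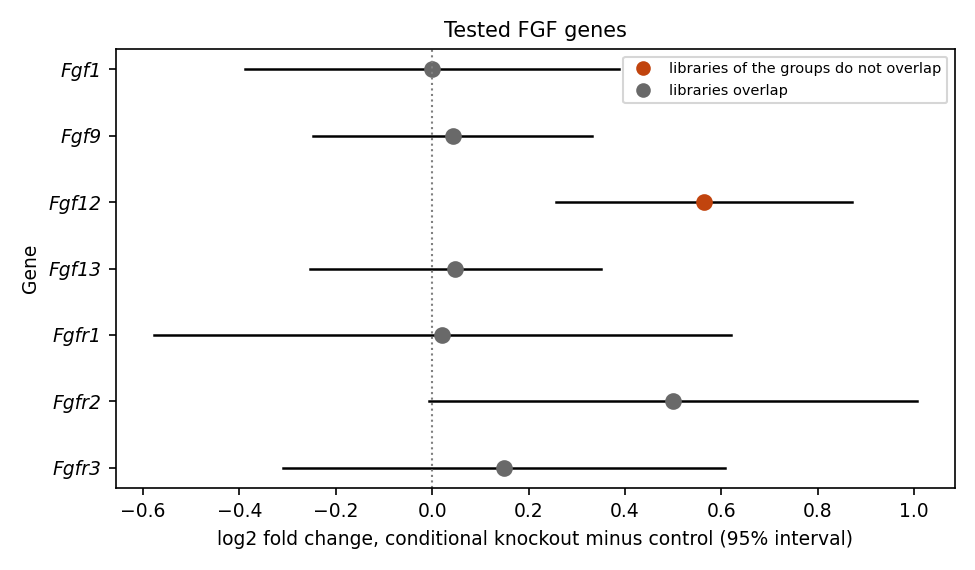
Limma log2 fold change of each tested FGF gene, conditional knockout minus control, with lines for the 95% interval before adjustment. The interval of Fgf12 lies above 0, from 0.26 to 0.87, that of Fgfr2 reaches -0.01, and no gene passed after adjustment.

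The other genes of the pathway came from lists and none passed. Of the 16 other FGF ligands, 2 reached the minimum and 0 passed or had an unadjusted p under 0.05. Fgf11, a further FGF homologous factor, stood at 3.56, 3.88 and 4.25 FPKM in conditional knockout libraries, against 2.43, 2.72 and 3.76 FPKM in control libraries. Only control replicate 3 reached into the range of the conditional knockouts, and limma gave 0.32 ± 0.15 (SE) on the log2 scale (adjusted p = 0.772). Fgf18 had a log2 fold change of 0.03 ± 0.17 (SE, limma adjusted p = 0.987). Fgf2 missed the minimum and ranged from 0.499 to 1.05 FPKM in conditional knockout libraries and from 0.273 to 2.18 FPKM in control libraries. Fgf4 and Fgf20 were listed at 0 in all 6 libraries, and Fgf16, which like Fgf9 belongs to the ligands that act on the myocardium, was at or under 0.0993 FPKM in all of them.

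Among co-receptors, ligand carriers and enzymes of heparan sulphate, 18 of 22 genes were tested and 0 passed, with a median log2 fold change of -0.04. In limma 3 of the 18 had an unadjusted p under 0.05, a level reached by 6.68% of all genes tested. Hspg2, the gene of the heparan sulphate proteoglycan perlecan, stood at 51.6, 45.5 and 44.6 FPKM in conditional knockout libraries, against 52.2, 66.1 and 61.2 FPKM in control libraries (limma log2 fold change -0.33 ± 0.12 SE, adjusted p = 0.742). Hs6st2, a sulphotransferase gene for heparan sulphate, stood at 17.3, 18.8 and 19.9 FPKM in conditional knockout libraries, against 16.99, 13.6 and 13.3 FPKM in control libraries (limma log2 fold change 0.34 ± 0.12 SE, adjusted p = 0.722). Flrt2, a membrane protein gene of a family that binds FGF receptors, had a log2 fold change of 0.33 ± 0.13 (SE, limma adjusted p = 0.742). In these 3 genes of the 18 tested the libraries of the groups did not overlap, a share near the 13.4% of all tested genes, and the margin was narrow in Hspg2 and Hs6st2. Gpc3, a glypican gene and the most abundant of the list, averaged 318 ± 29.2 FPKM in conditional knockouts and 281 ± 24.2 FPKM in controls, and Ext1, an enzyme gene of heparan sulphate chain synthesis, averaged 32.98 ± 2.90 FPKM in conditional knockouts and 33.9 ± 2.19 FPKM in controls (SD, n = 3 each).

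All 20 relay genes were tested and 0 passed, with 12 values below 0, 8 above and a median of -0.06. In limma 1 gene of the 20 had an unadjusted p under 0.05, a level reached by 6.68% of all genes tested. That gene was Mapk3, the gene of the MAP kinase ERK1, at 41.6, 45.4 and 40.1 FPKM in conditional knockout libraries, against 57.6, 57.6 and 49.5 FPKM in control libraries. All 3 conditional knockout libraries were below all controls, with a log2 fold change of -0.36 ± 0.11 (SE, limma adjusted p = 0.578). Map2k2, a kinase gene upstream of Mapk3, averaged 43.0 ± 4.03 FPKM in conditional knockouts and 48.9 ± 2.23 FPKM in controls (SD, n = 3 each). In 3 of the 20 relay genes the libraries of the groups did not overlap, a share near the 13.4% of all tested genes. Mapk3 and Map2k2 were lower in conditional knockouts and Sos1 was higher. In Map2k2 the margin was narrow, with 46.27 FPKM in conditional knockout replicate 2 and 46.41 FPKM in control replicate 3. Sos1 also had a narrow margin, with 6.20 and 6.07 FPKM in the same libraries. Frs2, the adaptor gene of the receptors, had the most positive value at 0.25 ± 0.12 (SE, limma adjusted p = 0.772).

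Targets and feedback inhibitors of the pathway did not pass either. Of 13 genes tested, 0 passed and 0 had an unadjusted p under 0.05 in limma, with 9 values below 0, 4 above and a median of -0.06. Dusp6, the gene of a phosphatase that acts on ERK, stood at 20.4, 17.1 and 18.3 FPKM in conditional knockout libraries, against 25.9, 19.9 and 19.7 FPKM in control libraries, with a log2 fold change of -0.21 ± 0.13 (SE, limma adjusted p = 0.808). Spry2, a Sprouty inhibitor gene, stood at 17.6, 15.6 and 17.3 FPKM in conditional knockout libraries, against 17.5, 17.02 and 17.2 FPKM in control libraries, with a log2 fold change of -0.04 ± 0.09 (SE, limma adjusted p = 0.958). Dusp5 and Spred3 had the extreme values of the list, at -0.27 ± 0.16 and 0.29 ± 0.18 (SE, limma adjusted p = 0.807 and 0.808), and Spred1 had one of 0.13 ± 0.11 (SE, limma adjusted p = 0.819). In conditional knockout replicate 1, where the receptor sum was highest, 6 of the 13 targets were highest and 3 were lowest.

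**Figure D4:**
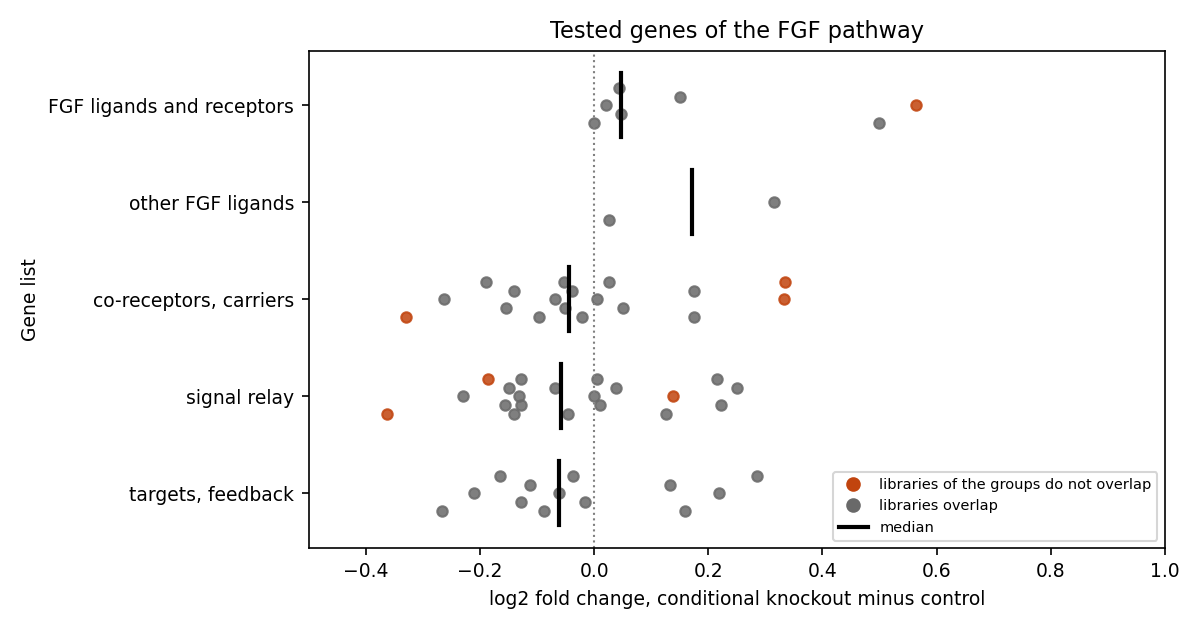
Limma log2 fold change, conditional knockout minus control, of every tested gene in the FGF lists, with a black bar at each list's median and orange points where the libraries of the groups did not overlap. Medians of the co-receptor, relay and target lists lie between -0.06 and -0.04, and Fgf12 at 0.56 is the value farthest from 0.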

How the data were processed

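RNA of whole embryonic hearts was sequenced in 3 conditional knockout and 3 control libraries. The authors deposited 1 table of FPKM values, already divided by transcript length and library total. Per the submitters' processing notes, which do not say how each tool was used, these were TopHat2 2.0.9, Cufflinks 2.2.1, Cuffdiff and HTSeq on mm10. Sources used here do not give annotation release, strand setting or the treatment of multiply matching reads. An exact 0 in the table can be a failed estimate: the globin genes Hbb-y and Hba-x are listed at 0 in all controls.

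Values were analysed as log2(FPKM + 1) in genes averaging 1 FPKM or more, with limma 3.58.1 in R 4.3.3 (intensity trend, no block, 4 residual and 3.33 prior degrees of freedom). A run on simulated data came first, as a check of the code only. Its noise was normal and independent between libraries, so it cannot show how the fit treats libraries that stand apart. The log scale understates the change of low genes. Absolute depth is unknown. Among genes under 0.3 FPKM, ratios of low values piled up at 1 ratio for 8.64% to 14.1% of genes between libraries of replicates 2 and 3, and for 1.2% to 3.56% in pairs with a replicate 1 library, so replicates 2 and 3 were also analysed alone.

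To check pairing, each library's deviation from its group mean was correlated with that of the library of the same number. This gave 0.27, 0.11 and 0.44 in 12805 tested genes never at 0, and 0.19, 0.031 and 0.23 when genes with zeros were kept, which leaves replicate 2 doubtful. The numbers, from the labels, were a block in an alternative.

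The genes and lists were chosen with earlier results of these data known. Named genes were the 10 FGF genes and Tek, in each list the genes past the threshold, the 3 most abundant and the extremes of log2 fold change, and the 3 genes most like the most abundant ligand and receptor. Marker lists are given as sums with single examples, and other genes were named after their values were seen. A few genes of the relay and sodium channel lists that this rule names are not reported here. A symbol on 2 rows, Flrt3, was read from the row above 0. Positions are from GENCODE M21 (GRCm38), which holds 37607 of the 38918 identifiers.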

Additional observations from a re-analysis of the deposited data

How the results depend on the processing

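No FGF gene, FGF pathway gene or sodium channel gene passed in any of the 14 alternatives, so those counts stayed at 0. Fgf12 kept a positive log2 fold change of 0.51 to 0.86 in its 13 alternatives (limma adjusted p from 0.339 to 0.9999), and Fgfr2 one of 0.14 to 0.66 in its 14. The replicate block left the log2 fold changes as they were and changed no call on an FGF gene (limma adjusted p = 0.339 for Fgf12 and 0.475 for Fgfr2), and over all genes it gave 11 lower and 6 higher genes.

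Over all genes, the count of lower genes was 7 with no filter on low values, 8 within replicates 2 and 3 and 1 when a Y-linked expression term was added, against 16. Without 1 library at a time it was 4 to 9, and the count of higher genes was 6 to 11, against 7. Directions turned in genes that never passed. Within replicates 2 and 3 the log2 fold change was -0.024 for Fgf9, -0.43 for Fgfr1 and -0.12 for Fgfr3. With the Y-linked term it was -0.18 for Fgf1, -0.046 for Fgf9 and -0.044 for Fgf13. Without 1 library at a time the values ranged from -0.13 to 0.14 for Fgf1, which had no direction at 0.00, -0.028 to 0.094 for Fgf9, -0.070 to 0.16 for Fgf13, -0.25 to 0.18 for Fgfr1 and -0.063 to 0.28 for Fgfr3. The cause was not tested. A gene under 5 FPKM has no value at a minimum of 5 FPKM. With unknown depth, no limit can be given for the genes under 1 FPKM.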

Other observations

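Some genes under the minimum of 1 FPKM had libraries that did not overlap, and they were picked out after their values were seen and were not tested at the minimum used. The share of genes without overlap given above covers tested genes only, and none was counted for genes under the minimum. Their separation is therefore given as values only, and the margin was narrow in Scn10a and Fgf17. Scn8a, a sodium channel gene of neurons and heart, stood at 0.598, 0.386 and 0.317 FPKM in conditional knockout libraries, against 0.218, 0.293 and 0.118 FPKM in control libraries. Scn10a stood at 0.828, 1.05 and 1.11 FPKM in conditional knockout libraries, against 0.554, 0.812 and 0.821 FPKM in control libraries. Fgf17, a ligand gene related to Fgf8, stood at 0.0902, 0.143 and 0.0521 FPKM in conditional knockout libraries, against 0.0212, 0.0322 and 0.0482 FPKM in control libraries.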
